A study of Rattus norvegicus with 21 samples.

Results

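The activin, inhibin and follistatin genes examined here are 10 genes of the signalling system that sets follicle-stimulating hormone (FSH) production in the pituitary, out of 14506 genes with a symbol of their own on the array. They were taken as a fixed list of names: the subunit genes Inha, Inhba and Inhbb, the binding protein genes Fst and Fstl3, the receptor genes Acvr1b, Acvr2a and Acvr2b, the co-receptor gene Tgfbr3 and the decoy receptor gene Bambi. Where a gene has several probe sets the one brightest on average over the 21 arrays stands for it, but each of the 10 had 1 probe set only. Fshb, which encodes the beta subunit of FSH, is set beside them as the gene that the system controls.

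Activins are dimers of beta subunits that act on the gonadotrophs, the pituitary cells that make FSH and luteinizing hormone. They bind a type II receptor, which recruits and phosphorylates a type I receptor, and SMAD proteins then carry the signal to the nucleus, where Fshb is one of the best known targets. Inhibins, in which an alpha subunit replaces one of the beta subunits, take up type II receptors with the help of betaglycan without activating them, and follistatins bind activin outside the cell, so both lower FSH.

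The adenoma group comprised 16 pituitary lesions of rats homozygous for the p27Kip1 mutation (written Cdknb1 in the labels), the rats of the MENX syndrome, in which gonadotroph adenomas form at several places of the anterior lobe. Lesions that share a sample number were read as lesions of 1 rat and averaged, which gave 9 adenomas (numbered 1 to 9), of which 4 stood on 1 lesion, 3 on 2 lesions and 2 on 3 lesions. The wild-type group comprised 5 normal pituitaries of rats that are wildtype at this gene. Both groups had the strain Sprague–Dawley white eye/Wistar–Kyoto and were kept under specific pathogen-free conditions, and neither label names a treatment. Sample numbers start with 08 (5 adenomas and 2 wild-type pituitaries) or 09 (4 and 3), a prefix that the labels do not explain. The adenomas came from 6 females and 3 males of 7 to 12 months, and the wild-type pituitaries from 2 females and 3 males of 6 months. The study's text gives another number of rats and a narrower range of ages for the mutants. The 9 averaged values behind every p-value and the ages used below thus rest on the labels alone. By the labels the youngest mutant was older than the wild-type rats, so that genotype and age cannot be told apart. The tissue was macrodissected and can hold other pituitary cells beside gonadotrophs, so that for every gene below fewer cells of a type and less RNA per cell cannot be told apart.

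The values are log2 expression levels from Affymetrix Rat Gene 1.0 ST arrays, on which 1 unit is a 2-fold difference, and array medians lay between 6.36 and 6.53. Over all 29214 probe sets, limma called 17.5% different between adenomas and wild-type pituitaries at an adjusted p under 0.05, 8.49% higher and 9.06% lower. Of the gonadotroph markers, the common alpha subunit gene Cga averaged 13.77 ± 0.05 in the adenomas and 12.86 ± 0.33 in wild-type pituitaries (SD, n = 9 and 5), and the gonadotropin-releasing hormone receptor gene Gnrhr 12.05 ± 0.30 and 10.65 ± 0.86. Both were higher in 9 of 9 adenomas than in any wild-type pituitary, while the luteinizing hormone gene Lhb was lower in 9 of 9 (−2.24, adjusted p = 0.000183). Markers of other cells moved as well. Lower were 4 of 4 somatotroph, 4 of 5 corticotroph and melanotroph and 5 of 11 folliculostellate and stem cell markers. So were 1 of 3 lactotroph and 1 of 3 thyrotroph markers, while 1 folliculostellate marker, Vim, was higher. The lactotroph marker was Pou1f1, which is also on the somatotroph list. Prl and Drd2 were not called (0.08 and −0.88, limma adjusted p = 0.434 and 0.0609). Higher were 7 of 10 macrophage, 6 of 11 pericyte and fibroblast, 3 of 9 endothelial and 7 of 7 mitosis genes (1 fibroblast marker, Ogn, was lower). The mean level over the macrophage list ran from 6.76 to 7.67 in the adenomas and from 6.20 to 6.78 in the wild-type group, and that over the folliculostellate list from 6.81 to 7.36 in the adenomas and from 7.19 to 7.74 in the wild-type group. Of the markers of the posterior lobe, 3 of 6 were lower, and their mean level ran from 6.26 to 6.74 in the adenomas and from 6.86 to 7.07 in wild-type pituitaries. The part of these other cells in the differences below was not tested. Cdkn1b, the mutated gene, lay between 8.99 and 9.55 in the adenomas and between 8.65 and 9.11 in wild-type pituitaries (0.33, adjusted p = 0.0324). A frameshift mutation leaves a transcript to be measured, so this level gives no check of the labels.

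Fshb itself was lower in the adenomas. Its level was 6.92, 7.44, 7.01, 9.93, 7.28, 8.81, 6.17, 7.91 and 9.30 in adenomas 1 to 9, against 8.83, 11.56, 11.47, 10.15 and 9.21 in wild-type pituitaries 1 to 5. Of the 9 adenomas 7 lay below the lowest wild-type value, and adenomas 4 and 9 lay within the wild-type range, as did 2 of 16 single lesions. The fall was 5.20-fold (log2 fold change −2.38, 95% interval −3.69 to −1.07, limma adjusted p = 0.0161). It was −2.07 with an adjusted p of 0.0528 without wild-type pituitary 3, and −2.48 and −2.23 among rats whose sample number starts with 08 and with 09 (adjusted p = 0.208 and 0.0847). Over 15 other settings of the analysis the adjusted p ran from 0.00151 to 0.806.

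Of the 10 regulators of Fshb 1 was called, Acvr2a, which was lower. The share called among all probe sets was 17.5%, and 9.06% for lower calls alone, so the count of 1 in 10 is close to the share on the whole array. None was called higher by limma, and at an unadjusted p under 0.05 there was 1 gene in each direction, Fst higher and Acvr2a lower (20.0% of the list, against 32.7% of all probe sets). In none of the 10 did all adenoma values lie apart from all wild-type values, which 4.82% of all probe sets did. The median log2 fold change over the 10 genes was −0.02, beside −0.03 over all probe sets. The 95% interval of the log2 fold change lay within 2-fold in either direction for 10 of 10 genes, as it did for 90.4% of all probe sets, and that of Fshb did not. None of these counts sets the list apart from the array as a whole.

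**Figure D1:**
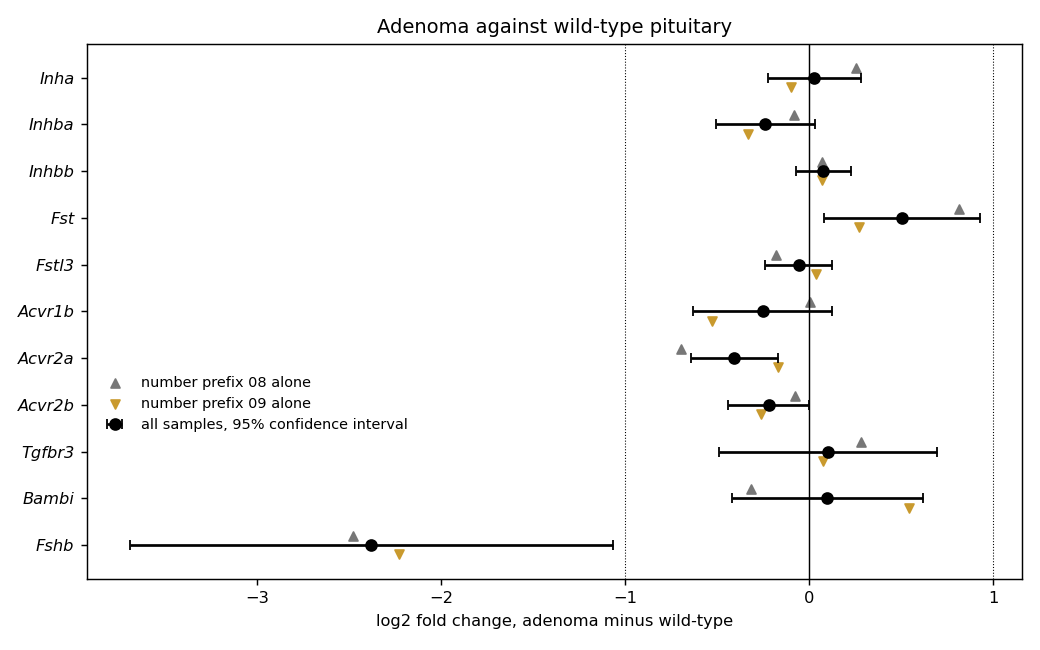
Log2 fold change, adenoma minus wild-type (horizontal axis, log2 units), for the 10 genes and Fshb, one gene per row, with points for the limma estimates and bars for their 95% intervals (9 adenomas, 5 wild-type pituitaries). The 10 genes lie between −0.41 (Acvr2a) and 0.50 (Fst), whereas Fshb lies at −2.38.

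**Figure D2:**
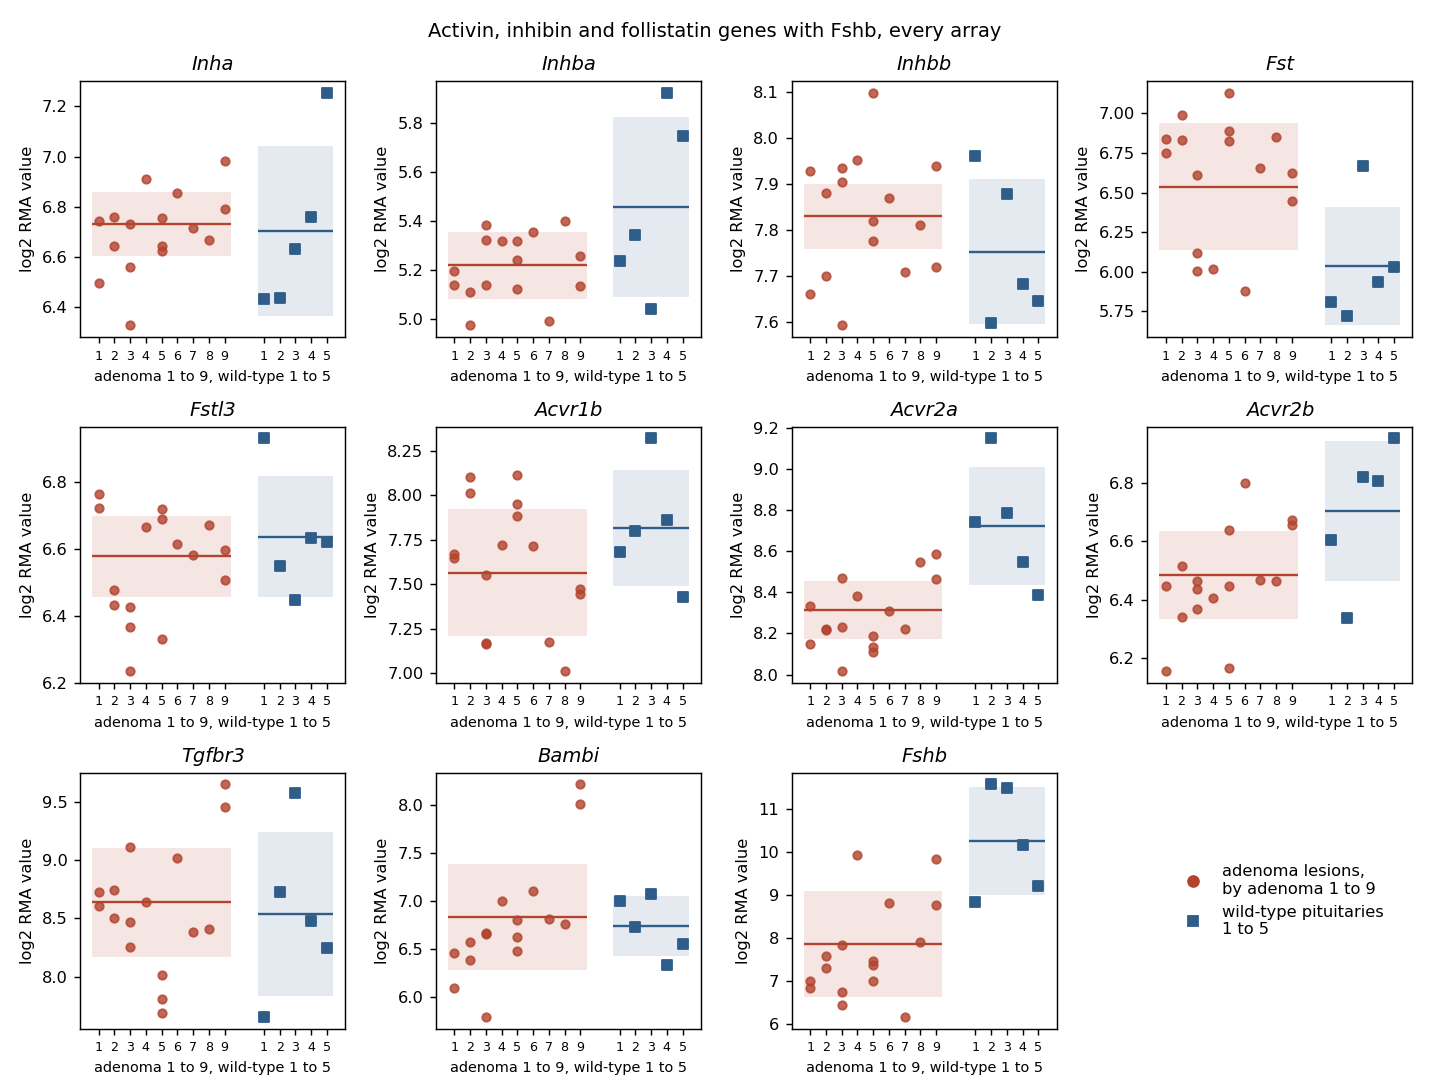
Log2 expression level (vertical axis) of each gene on every array, with circles for the 16 adenoma lesions placed by adenoma 1 to 9 and squares for wild-type pituitaries 1 to 5; lines and bands give the mean ± SD over 9 adenomas and over 5 wild-type pituitaries, and each panel has its own scale. The 2 lesions of adenoma 9 stand above all others in Bambi, and 12 of 16 lesions lie below every wild-type pituitary in Acvr2a.

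Among the ligand subunits, Inhbb, the beta B subunit of activin B and inhibin B and the form that gonadotrophs make themselves, kept the narrowest range. The 9 adenomas had a lowest, median and highest level of 7.71, 7.81 and 7.95, against 7.96, 7.60, 7.88, 7.68 and 7.65 in wild-type pituitaries 1 to 5. The adenoma values lay wholly inside the wild-type range. Inhbb averaged 7.83 ± 0.07 in the adenomas and 7.75 ± 0.16 in the wild-type group (log2 fold change 0.08, interval −0.07 to 0.23, adjusted p = 0.486), so that a difference beyond 1.17-fold higher or 1.05-fold lower lies outside the interval.

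Inha encodes the alpha subunit that turns a beta subunit into an inhibin. Its level was 6.54, 6.70 and 6.91 in the lowest, median and highest adenoma, against 6.43, 6.44, 6.63, 6.76 and 7.25 in wild-type pituitaries 1 to 5. All 9 adenomas fell inside the wild-type range, which wild-type pituitary 5, a female, set at its upper end. The means were 6.73 ± 0.13 and 6.70 ± 0.34 (0.03, interval −0.23 to 0.28, adjusted p = 0.901). Within prefix 08 the log2 fold change was 0.26 and within prefix 09 −0.10 (adjusted p = 0.267 and 0.713).

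Inhba, the beta A subunit of activin A and inhibin A, was dim on the array. Its level was 4.99, 5.23 and 5.40 in the lowest, median and highest adenoma, against 5.24, 5.34, 5.04, 5.92 and 5.74 in wild-type pituitaries 1 to 5. Only adenoma 7 lay below every wild-type pituitary, and wild-type pituitaries 4 and 5 lay above every adenoma. The log2 fold change was −0.24 (interval −0.51 to 0.03, adjusted p = 0.208), and its mean over the samples was under the level of 6 that the filter on dim probe sets required.

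Follistatin, the product of Fst, binds activin almost irreversibly and is made in the pituitary as well as the gonads. The Fst level was 6.80, 6.91, 6.24, 6.02, 6.95, 5.88, 6.65, 6.85 and 6.53 in adenomas 1 to 9, against 5.81, 5.72, 6.67, 5.94 and 6.03 in wild-type pituitaries 1 to 5. The 4 adenomas 1, 2, 5 and 8 lay above every wild-type pituitary, as did 8 of 16 lesions, while adenomas 4 and 6 lay among the lower wild-type values and wild-type pituitary 3 stood above the other 4. The means of 6.54 ± 0.40 in the adenomas and 6.03 ± 0.37 in the wild-type group differed 1.42-fold (log2 fold change 0.50, interval 0.08 to 0.93), which did not pass the test after adjustment (p = 0.0232, limma adjusted p = 0.0941).

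The call for Fst turned on single samples and on what counts as a replicate. It passed as higher without wild-type pituitary 3 (0.66, adjusted p = 0.0374), without adenoma 6 (0.59, adjusted p = 0.0385) and with the 16 lesions taken as independent samples (0.56, adjusted p = 0.0295). It passed too with all 16 lesions and the sample number as a random block (0.53, adjusted p = 0.0423), which allows for lesions that share a rat. Among rats with a sample number starting with 08 the log2 fold change was 0.82 and among those with 09 it was 0.27 (adjusted p = 0.149 and 0.528). The adjusted p ran from 0.0295 to 0.950 over the 15 other settings.

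Within the adenomas, Fst was the member with the steepest slope over age. Its level was 6.02 at 7 months and 5.88 at 8 months, 6.91 and 6.24 at 10 months, 6.80 at 11 months, and 6.95, 6.65, 6.85 and 6.53 at 12 months. The 2 youngest adenomas were thus the lowest. The slope was 0.17 log2 units per month (interval 0.074 to 0.27, p = 0.00279), which did not pass after limma's adjustment over all probe sets (adjusted p = 0.195), and 1 of the 10 genes had an unadjusted p under 0.05 here beside 3434 of all probe sets. The slope was 0.19 among the 5 adenomas with prefix 08 and 0.20 among the 4 with prefix 09 (adjusted p = 0.389 and 0.254), and 0.14 to 0.19 with each adenoma left out in turn. Each of these fits kept a young adenoma. Adenoma 4, of 7 months, has prefix 08, and adenoma 6, of 8 months, has prefix 09, where all others were of 12 months. No slope was fitted without both, so a steady rise over the months was not tested. Only 1 probe set of all, or 0.00342%, passed the adjusted threshold for a slope over all 9 adenomas. Fshb had a slope of −0.38 per month (interval −0.76 to 0.01, adjusted p = 0.432). The adenomas of 7 and 8 months set against the wild-type group gave a log2 fold change of −0.09 for Fst and of −0.87 for Fshb (adjusted p = 0.950 and 0.806, 2 adenomas).

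**Figure D3:**
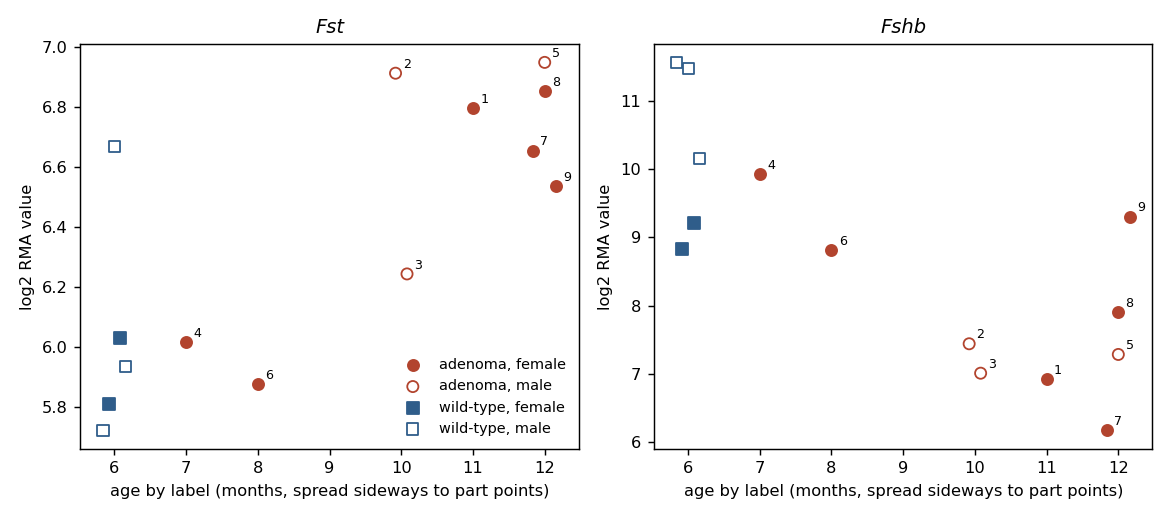
Log2 expression level (vertical axes) of Fst and Fshb against the age on the label (horizontal axes, months), with circles for adenomas 1 to 9 and squares for the 5 wild-type pituitaries, filled for females and open for males. The Fst circles run from 5.88 at 8 months to 6.95 at 12 months, and the Fshb circles of 10 to 12 months lie below the wild-type squares except for adenoma 9 at 9.30.

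Fstl3, which encodes a secreted follistatin-like protein that also binds activin, showed no such spread. It averaged 6.58 ± 0.12 in the adenomas and 6.64 ± 0.18 in the wild-type group (−0.06, interval −0.24 to 0.12, adjusted p = 0.677). The adenomas lay between 6.34 and 6.74, the wild-type pituitaries between 6.45 and 6.93, and only adenoma 3 lay below every wild-type pituitary. Within prefix 08 the log2 fold change was −0.18 and within prefix 09 0.04 (adjusted p = 0.569 and 0.839).

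The receptors held the one called gene. Acvr2a encodes the type II receptor ActRIIA, which binds activin and, together with betaglycan, inhibin. Its level was 8.24, 8.22, 8.24, 8.38, 8.14, 8.31, 8.22, 8.55 and 8.53 in adenomas 1 to 9, against 8.74, 9.15, 8.79, 8.55 and 8.38 in wild-type pituitaries 1 to 5. Adenomas 1 to 7 lay below every wild-type pituitary, adenoma 4 by the smallest margin, and adenomas 8 and 9 lay within the wild-type range, next to wild-type pituitary 4. The means were 8.31 ± 0.14 and 8.72 ± 0.29, a difference of −0.41 (SE 0.11, interval −0.64 to −0.17) or 1.33-fold lower in the adenomas (limma p = 0.00222, adjusted p = 0.0204).

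The call depended on which samples entered. The log2 fold change was −0.39 with an adjusted p of 0.0514 without wild-type pituitary 3. Its size was −0.70 in rats with prefix 08 (adjusted p = 0.0370) and −0.17 in those with prefix 09 (adjusted p = 0.444), and the difference between the prefixes was 0.53 (interval 0.13 to 0.93, p = 0.0140, adjusted p = 0.263). With the prefix as a block the value was −0.41 (adjusted p = 0.0210), and over the 15 other settings, in all of which the adenomas were lower, the adjusted p ran from 0.00298 to 0.704.

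The genes whose levels ran most like Acvr2a over the 9 adenomas were Pkd2l2, Prkcq and Rnf26 (Pearson r = 0.97, 0.97 and 0.96, a description over 9 averaged values). As many as 294 named probe sets had an r above 0.8 with it. Over the 5 wild-type pituitaries the same 3 genes had r = −0.07, −0.28 and 0.81.

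The related receptor gene Acvr2b, encoding ActRIIB, was not called. The adenomas had 6.30, 6.43 and 6.80 as lowest, median and highest level, against 6.60, 6.34, 6.82, 6.81 and 6.95 in wild-type pituitaries 1 to 5. Only adenoma 1 lay below all wild-type pituitaries, because wild-type pituitary 2 was nearly as low. The log2 fold change was −0.22 (interval −0.44 to 0.00, p = 0.0505, adjusted p = 0.154), and −0.31 without wild-type pituitary 2, where it was called (adjusted p = 0.0317).

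Acvr1b encodes ALK4, the type I receptor through which activin signals. It was 7.01, 7.66 and 8.06 in the lowest, median and highest adenoma, against 7.68, 7.80, 8.32, 7.86 and 7.43 in wild-type pituitaries 1 to 5. Adenomas 3, 7 and 8 lay below every wild-type pituitary and the other 6 overlapped with them. The means of 7.57 ± 0.36 and 7.82 ± 0.33 were not called different (−0.25, interval −0.63 to 0.12, adjusted p = 0.343). The log2 fold change was 0.0042 within prefix 08 and −0.53 within prefix 09 (adjusted p = 0.995 and 0.164), and the difference between the prefixes was −0.53 (interval −1.25 to 0.18, adjusted p = 0.534).

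Tgfbr3 encodes betaglycan, the co-receptor that gives inhibin its affinity for type II receptors. Its level was 8.66, 8.62, 8.61, 8.64, 7.84, 9.02, 8.38, 8.41 and 9.55 in adenomas 1 to 9, against 7.66, 8.73, 9.57, 8.48 and 8.25 in wild-type pituitaries 1 to 5. All adenomas lay within the wild-type range, which spanned more than in any other member, and the means were 8.64 ± 0.46 and 8.54 ± 0.70 (0.10, interval −0.49 to 0.69, adjusted p = 0.836). Within each sex the means were as follows. The 6 female adenomas averaged 8.78 ± 0.44 against 7.95 in the 2 female wild-type pituitaries, and the 3 male adenomas 8.36 ± 0.45 against 8.92 in the 3 male wild-type pituitaries. All 6 female adenomas lay above both female wild-type pituitaries, whereas the males overlapped. Females had an effect of 0.82 and males one of −0.57, which gave an interaction of 1.39 (interval 0.35 to 2.43, p = 0.0125) that did not pass limma's adjustment over all probe sets (adjusted p = 0.598).

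Bambi encodes a membrane protein shaped like a type I receptor without a kinase, which dampens activin and TGF-beta signals. The level was 6.28, 6.48, 6.37, 7.00, 6.64, 7.10, 6.81, 6.76 and 8.11 in adenomas 1 to 9, against 7.00, 6.73, 7.08, 6.33 and 6.56 in wild-type pituitaries 1 to 5. Adenoma 9 stood apart, with both of its lesions high, at 8.01 and 8.21, and adenoma 6 was just above and adenoma 1 just below the wild-type range, with the other 6 within it. The group difference was 0.10 (interval −0.42 to 0.62, adjusted p = 0.816) with adenoma 9 and −0.06 without it. In rats with prefix 08 it was −0.31 and in those with prefix 09, adenoma 9 among them, 0.54 (adjusted p = 0.441 and 0.307).

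For sex in general, no member passed. The difference of the group effect between the sexes passed limma's adjusted threshold for 0 of 29214 probe sets (0%; 1981 at an unadjusted p under 0.05), and of the 10 genes Tgfbr3 alone was under 0.05 before adjustment. Fshb had an effect of −0.85 in females and −3.82 in males (difference 2.97, interval 0.62 to 5.32, p = 0.0173, adjusted p = 0.632). Its mean was 8.17 ± 1.44 in female adenomas against 9.02 in female wild-type pituitaries, and 7.24 ± 0.22 in male adenomas against 11.06 in male wild-type pituitaries. For Acvr2a the effect was −0.19 in females and −0.63 in males (difference 0.43, interval −0.03 to 0.89, adjusted p = 0.759). Between female and male adenomas 0 of 29214 probe sets passed (0%; 2340 at an unadjusted p under 0.05), and Fstl3 was the only member under 0.05 before adjustment, at 0.18 higher in females (p = 0.0425, limma adjusted p = 0.618). All 3 male adenomas had prefix 08, so that sex within prefix 09 could not be compared.

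Whether the members followed Fshb from adenoma to adenoma was asked over the 9 adenomas, with 10 relations and exact permutation tests (two-sided). Over all 9 adenomas the coefficient was largest for Inha (Pearson r = 0.84, exact permutation p = 0.00594, adjusted p = 0.0594; Spearman rho = 0.68, p = 0.0503, adjusted p = 0.168). Inhbb followed (r = 0.75, exact permutation p = 0.0190, adjusted p = 0.0948; rho = 0.73, p = 0.0311, adjusted p = 0.168), and then Bambi (r = 0.67, exact permutation p = 0.0374, adjusted p = 0.125; rho = 0.68, p = 0.0503, adjusted p = 0.168). None of the 10 passed the adjusted threshold over all 9 adenomas. With 1 adenoma left out, Inha passed without adenoma 7 (r = 0.95, exact permutation adjusted p = 0.00546) and Inhbb without adenoma 5 (r = 0.89, exact permutation adjusted p = 0.0139). Without adenomas 4 and 9, the farthest from the Fshb median, r fell to 0.59 for Inha and was 0.68 for Inhbb and 0.55 for Bambi, with adjusted p of 0.374, 0.299 and 0.394 in exact permutation tests over 7 adenomas. Acvr2b and Inhba then had the largest coefficients, at r = 0.74 and 0.72 (exact permutation adjusted p = 0.299 for each), beside 0.48 and 0.55 over all 9. The coefficient for Inha thus depended in part on these 2 adenomas, which had the highest Fshb, and so did the order of the members. Over the 16 single lesions r was 0.59 for Inha, 0.37 for Inhbb and 0.25 for Inhba, and largest for Bambi (0.73) and Acvr2a (0.69). These lesions are not independent, and no test was run over them. Among rats with several lesions, Inhbb varied less between rats (SD 0.04) than between lesions of a rat (0.17).

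Fst was the only member with a negative coefficient (r = −0.58, exact permutation p = 0.106, adjusted p = 0.173; rho = −0.40, p = 0.291, adjusted p = 0.416), and r was −0.47 without adenomas 4 and 9. Acvr2a had r = 0.62 (exact permutation p = 0.0746, adjusted p = 0.173; rho = 0.62, p = 0.0857, adjusted p = 0.214). For the remaining 5 members r lay between 0.18 for Acvr1b and 0.56 for Tgfbr3 and rho between 0.07 for Fstl3 and 0.58 for Inhba (exact permutation p of r from 0.119 to 0.639, adjusted p from 0.173 to 0.639). Prefix 08 held 5 adenomas and prefix 09 held 4, and no correlation was computed over so few samples.

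**Figure D4:**
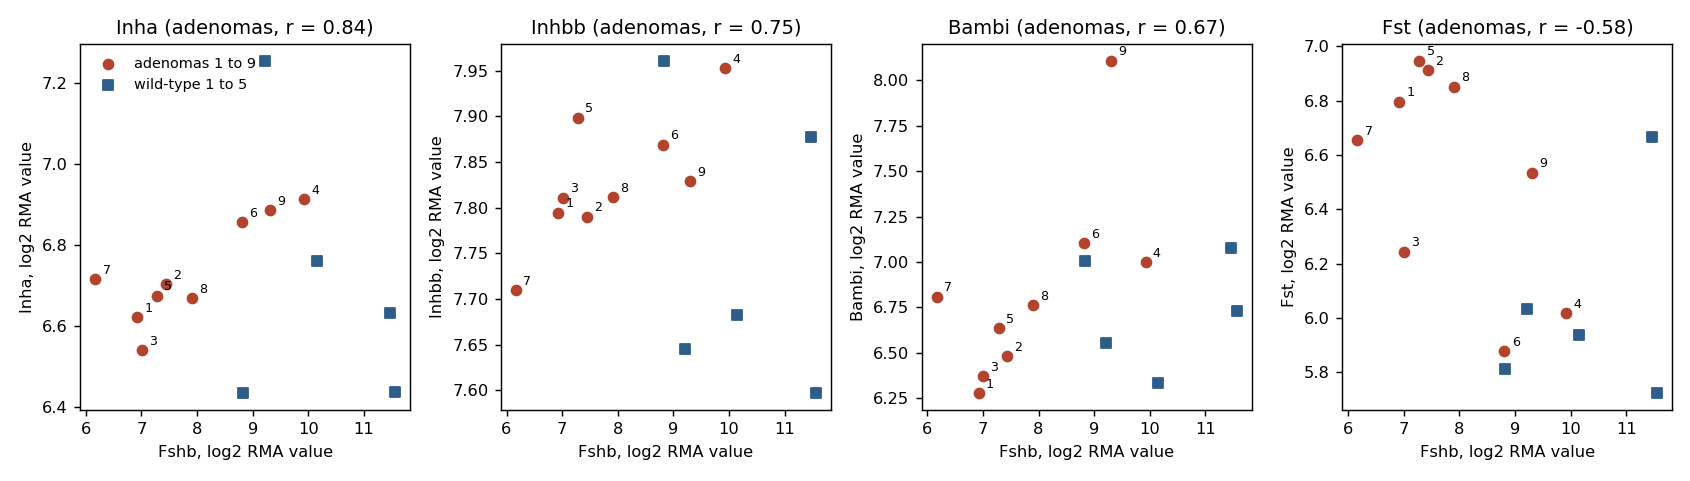
Log2 expression level of the members shown (vertical axes) against that of Fshb (horizontal axes), with circles for adenomas 1 to 9 and squares for the 5 wild-type pituitaries; r in each title is over the adenomas. Adenomas 4 and 9 lie at the high end of Fshb, at 9.93 and 9.30, and r for Inha is 0.84 with them and 0.59 without.

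Lesions of 1 rat could be compared for the 5 adenomas with several lesions (12 lesions). For Bambi the SD among lesions of a rat was 0.31 and that between rats 0.76, and for Fshb they were 0.51 and 0.98. For Tgfbr3 they were 0.27 and 0.61 and for Acvr1b 0.14 and 0.33. Each of these SDs was larger between rats than within one. In Bambi and Fshb, however, adenoma 9 stood apart, at 8.11 and 9.30. Adenomas 1, 2, 3 and 5 lay between 6.28 and 6.64 in Bambi and between 6.92 and 7.44 in Fshb. For these 2 genes the larger SD between rats thus leaned on 1 rat, and it was not computed without adenoma 9. The SD between rats was the smaller for Inhbb, with 0.17 within rats and 0.04 between them. It was so too for Inha (0.14 and 0.13), Inhba (0.10 and 0.09) and Acvr2b (0.16 and 0.13). Fst had 0.20 and 0.30. Adenoma 3 held the widest gap between lesions for 8 of the 10 genes and for Fshb, and adenoma 5 for Fstl3 and Acvr2b. These 2 adenomas had 3 lesions each and adenomas 1, 2 and 9 had 2. A gap over more lesions tends to be wider, so these counts do not set adenoma 3 apart. In adenoma 3 the Fst level was 6.12, 6.00 and 6.61 in lesions 5, 6 and 7, the Bambi level 5.80, 6.66 and 6.65, and the Fshb level 6.44, 7.83 and 6.75. High Fshb and high Fst thus did not fall in the same lesion of that rat. Other rats differed. In adenomas 1 and 2 the lesion with the higher Fst had the higher Fshb too, and in adenoma 9 it had the lower Fshb. In adenoma 5 lesion 10 was highest in Fst and lesion 9 in Fshb, while lesion 11 was lowest in both.

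Of 57 further genes of the activin, nodal and TGF-beta pathway, 49 were measured, and 4 were higher and 8 lower in the adenomas (24.5% called, beside 17.5% of all probe sets). Their median log2 fold change was −0.05. In the list of other receptors and co-receptors, which also held the membrane glycoprotein gene Igsf1, 1 of 8 was higher and 3, Igsf1 among them, were lower. Acvr1, the type I receptor ALK2, lay between 7.50 and 8.08 in the adenomas and between 7.97 and 8.24 in wild-type pituitaries, with 8 of 9 adenomas below all of these (−0.38, limma adjusted p = 0.0166). Tgfbr1, the type I receptor of TGF-beta, was lower by a like amount (−0.45, adjusted p = 0.0160), although not without wild-type pituitary 3 (−0.38, adjusted p = 0.0520). Igsf1, a membrane glycoprotein abundant in the pituitary, averaged 9.46 ± 0.42 in the adenomas and 10.30 ± 0.34 in the wild-type group (−0.84, adjusted p = 0.0108). Eng, a TGF-beta co-receptor of endothelial cells and one of the 3 endothelial markers that were higher, had a log2 fold change of 0.50 (adjusted p = 0.0289), and it was no longer called when adenoma 1, wild-type pituitary 4 or wild-type pituitary 5 was left out (0.45 to 0.52). The remaining 4, Acvr1c, Acvrl1, Tgfbrap1 and Bmpr2, were not called.

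Of the other ligands 1 of 12 was called. Gdf11, a ligand that shares the activin type II receptors, lay between 6.54 and 6.91 in the adenomas and between 6.93 and 7.72 in wild-type pituitaries. Its groups did not overlap, as all adenoma values lay below all wild-type values, which 2.16% of all probe sets showed (−0.55, limma adjusted p = 0.00302). Nodal, Mstn, Amh and the 3 TGF-beta genes were among those that did not pass.

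The extracellular binding proteins had 1 higher and 1 lower among 7 measured. Ltbp1, which anchors latent TGF-beta to the matrix, averaged 5.90 ± 0.24 in the adenomas and 6.89 ± 0.31 in the wild-type group, 1.99-fold lower with no overlap (−0.99, limma adjusted p = 0.000416). Ltbp3, a protein of the same family, was higher, at 8.61 ± 0.21 and 8.05 ± 0.25 (0.57, adjusted p = 0.00512). The furthest apart of the pathway genes was Tll1, a tolloid-like protease, the 1 called of 5 convertases and proteases. It averaged 4.81 ± 0.22 in the adenomas and 6.35 ± 0.52 in the wild-type group, 2.91-fold lower with no overlap (−1.54, adjusted p = 0.000104). The adenoma mean was under the level of 6 used for dim probe sets. Within prefix 08 the log2 fold change was −1.23 and within prefix 09 −1.79.

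Inside the cell 2 of 8 SMAD genes and 2 of 9 SMAD partners were called. Smad9, a SMAD of the bone morphogenetic protein branch, lay between 5.28 and 7.74 in the adenomas and between 5.23 and 6.11 in wild-type pituitaries, and was higher (1.17, limma adjusted p = 0.0327), a call lost without any 1 of 9 samples (1.04 to 1.22), with 0.85 in prefix 08 and 1.50 in prefix 09. Smad7, the inhibitory SMAD that activin and TGF-beta induce, was lower (−0.27, adjusted p = 0.0376), a call lost without any 1 of 8 samples (−0.28 to −0.23). Smad2 and Smad3, which carry the activin signal, and Smad4 had log2 fold changes of 0.18, −0.34 and −0.03 (adjusted p = 0.200, 0.158 and 0.855). The SMAD corepressor gene Tgif1 was higher (0.85, adjusted p = 0.0493), a call lost without any 1 of 12 samples (0.72 to 0.91), with 1.52 in prefix 08 and 0.17 in prefix 09. The ubiquitin ligase gene Nedd4l was lower (−0.38, adjusted p = 0.0240), a call lost without wild-type pituitary 3 (−0.36). Acvr1, Igsf1, Gdf11, Ltbp1, Ltbp3 and Tll1 kept their calls with each of the 14 samples left out in turn.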

How the data were processed

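The 21 arrays (Affymetrix Rat Gene 1.0 ST) measured total RNA of 16 pituitary lesions and 5 normal pituitaries. The deposited values are log2 expression levels, which the authors made with RMA (background correction, quantile normalisation and probe summarisation over all arrays) in Affymetrix Expression Console, per the labels. For both programs the version is not given in the sources used here. No scanner file was used, and array data carry no read depth, so the number of arrays limits the precision.

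Probe sets were named through the platform's annotation table (symbols of 1 gene only, 13581 probe sets with no symbol and 323 with several left unnamed), and a gene was read from the probe set with the highest mean. Lesions of 1 sample number were averaged. Adenomas and wild-type pituitaries were compared with limma 3.58.1 in R 4.3.3 (lmFit, eBayes, residual degrees of freedom 12), with Benjamini-Hochberg adjustment over all 29214 probe sets and a call at an adjusted p under 0.05. Interaction with sex, difference between the sexes and slope with age were fitted likewise, and Fshb relations were tested by exact permutation. The limma steps were tested on simulated data. Where the labels do not say that samples are independent animals, p-values measure only the spread between these samples.

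The text names all 10 members and Fshb, the called genes of each pathway list (at most 4 in each direction), and the 3 genes most like a called member. Members and lists were chosen with earlier results of these data known. Alternatives were lesions as independent samples or with the number as a random block, the methods' t-test, a variance trend, array weights, sex, prefix and title number as covariates or blocks, either prefix alone, the 2 youngest adenomas alone, another centring or normalisation, a filter on dim probe sets (mean of 6 or more), a stricter threshold and each sample left out in turn. Values within prefixes for age and sex, the interaction with the prefix and age slopes with a sample left out were added after the data were seen.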

Additional observations from a re-analysis of the deposited data

Results flagged for a closer look

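In Bambi, adenoma 9 stood far above the other 8 adenomas, at 8.11 against 7.10 for the next (adenoma 6), a gap of 0.55 of the whole range. It is the only such sample among 22 groups looked at (11 genes in 2 groups), where chance alone marks about 1 in 20. Both lesions of adenoma 9 were high (8.01 and 8.21).

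In Tgfbr3, the effect of the adenoma group differed in direction between the sexes by 1.39 log2 units. All 6 female adenomas lay above the mean of the female wild-type pituitaries and all 3 male adenomas below that of the male ones. The difference was tested as an interaction and did not pass after adjustment over all probe sets (limma p = 0.0125, adjusted p = 0.598). It rests on 2 female and 3 male wild-type pituitaries.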

How the results depend on the processing

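The 10 genes were recomputed under 15 settings and with each of the 14 samples left out in turn. Taking the 16 lesions as independent samples, the number as a random block or the methods' t-test gave 1 member called higher (Fst) in each, and 4142 (lesions) and 4014 (t-test) probe sets lower in place of 2648. Prefix 08 alone gave 363 higher and 345 lower calls (199 and 134 over 2-fold, in place of 417 and 307), and prefix 09 alone 0 members lower, Acvr2a at −0.17 and 468 probe sets over 2-fold lower. The adenomas of 7 or 8 months alone gave 0 members lower, Acvr2a at −0.38, Fst at −0.087, Fstl3 at 0.0038, and 119 higher and 14 lower calls (108 and 13 over 2-fold). An adjusted p under 0.01 left 0 members lower (Acvr2a at −0.41), with 1101 higher and 1052 lower calls. Leaving out 1 sample gave 0 to 1 members higher, 0 to 2 lower, 1573 to 3106 probe sets higher and 1649 to 3780 lower, both lowest without wild-type pituitary 4, and 354 to 480 and 234 to 510 over 2-fold. It gave −0.49 to −0.30 for Acvr2a, −0.040 to 0.16 for Inha, −0.12 to 0.36 for Tgfbr3, −0.060 to 0.18 for Bambi and −0.11 to 0.016 for Fstl3.

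Other values changed sign without passing a test in either direction. They were Inha with lesions as independent samples and under the t-test (−0.0026), with sex as a covariate (−0.019) and in prefix 09 (−0.10), Tgfbr3 with array weights (−0.030), Acvr1b in prefix 08 (0.0042), Bambi in prefix 08 (−0.31) and Fstl3 in prefix 09 (0.038). The sex difference of the effect for Fst was 0.020 over lesions, female minus male adenomas in prefix 08 was 0.040 for Inhbb and −0.069 for Acvr2b, the age slope of Fstl3 was 0.0033 with sex as a covariate, and the Acvr1b relation with Fshb was −0.039 to 0.29 with 1 adenoma left out. The cause of these changes was not tested.

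The replicate numbers in the titles only name samples: deviations of equally numbered samples had r = −0.05 to 0.20, and no sample was closest to its own number. With this number as a replicate block, 1 member was called higher (Fst), 666 and 527 probe sets were over 2-fold higher and lower, and Inha was −0.028, Inhbb −0.00030 and Bambi −0.48. Other probe sets of a member could not be tried, as each has 1. With 5 wild-type pituitaries, 2 of them female, small differences between the sexes could not be resolved.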
